A study of Mus musculus with 2 samples.

Results

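Lipid-associated macrophage genes are a set that marks macrophages engaged in taking up and breaking down lipid and dying cells. Here they are 7 genes chosen by symbol, Trem2, Gpnmb, Mmp12, Lgals3, Itgax, Atp6v0d2 and Cd9, out of 22620 genes in the deposited tables, and all 7 symbols were found. In adipose tissue such macrophages gather around stressed or dying adipocytes. TREM2 is a surface receptor that binds lipids and signals through the adaptor DAP12 (gene Tyrobp), GPNMB is a transmembrane glycoprotein of late endosomes and lysosomes, and ATP6V0D2 is a subunit of the proton pump that acidifies lysosomes. MMP12 is a secreted protease known as macrophage metalloelastase, LGALS3 is the sugar-binding lectin galectin-3, ITGAX is the integrin chain CD11c of dendritic cells and some macrophages, and CD9 is a tetraspanin of many cell types.

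Single nuclei came from the brown fat of 4-week-old mice in 2 droplet libraries, with the genotype Flox in 1 and KO in the other. In the series design the knocked-out gene is Nfe2l1, which encodes a transcription factor that drives proteasome genes. Not given in the sources used here were the Cre driver, the deleted part of the gene, the sex of the mice and how many mice each library pools. With 1 library per genotype there is no replicate and no test between genotypes: values stand side by side, and 95% intervals, given in parentheses, cover counting error only.

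The Flox library held 16145 barcodes with 46528077 UMIs (counted molecules) and the KO library 13030 barcodes with 43080725. After filters on genes, mitochondrial UMIs and doublets, 13986 and 11570 nuclei remained, in 12 clusters that carried 8 class names. Nfe2l1 went against the label, since adipocyte-like nuclei had 131 CPM (UMIs of the gene per 1000000 UMIs of the class) under the Flox label and 313 CPM under the KO label, so every direction below rests on the labels alone. Among kept nuclei, 48 barcode sequences occurred in both libraries. The macrophage/monocyte-like cluster had 579 nuclei in Flox, 4.14% of the library (3.82 to 4.48), and 402 in KO, 3.47% (3.15 to 3.82). All 14 macrophage/monocyte markers were raised in it. Its nuclei were deeper in KO, with medians of 1630 and 2157 UMIs, and their median mitochondrial share was 0.389% in Flox and 1.12% in KO.

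The promoters shown here are those of the members with a match to the AP-1 site, a motif of stress and activation-induced genes. RefSeq promoters on GRCm38.p6 (the mm10 assembly) were found for 6 of the 7 members. To describe them, 4 short motifs bound by factors of the macrophage lineage or the lysosome were searched on both strands: the AP-1 site TGAGTCA, the E-box CACGTG, the M-box TCATGTG and the ETS-type site GAGGAAGT, none of which overlapped another in these promoters. The AP-1 site was in a promoter of 3 of the 6 members, Gpnmb, Mmp12 and Itgax, and in 5.20% of all 32851 promoters of the same length. The E-box was in none of the 6 and in 7.15% of all promoters. The M-box was in 1 Mmp12 promoter (3.77% of all), and the ETS-type site was in the other Mmp12 promoter (3.20% of all). The percents count promoters, while each member is counted once although Mmp12 has 2 promoters, so the units are unlike. A match is a description of letters and was not tested as a site. The sequences run from 250 bases before the start to 20 after it, on the plus strand, with the matches in capitals (TGACTCA and CACATGA are the reverse complements of the AP-1 site and the M-box).
Gpnmb, chr6:49036268-49036537: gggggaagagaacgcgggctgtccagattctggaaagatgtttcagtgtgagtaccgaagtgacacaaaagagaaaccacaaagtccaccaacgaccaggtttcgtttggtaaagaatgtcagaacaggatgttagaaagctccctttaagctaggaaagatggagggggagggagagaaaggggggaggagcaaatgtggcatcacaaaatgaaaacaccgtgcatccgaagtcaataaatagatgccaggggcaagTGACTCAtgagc
Mmp12, the second of 2 starts, chr9:7347124-7347393: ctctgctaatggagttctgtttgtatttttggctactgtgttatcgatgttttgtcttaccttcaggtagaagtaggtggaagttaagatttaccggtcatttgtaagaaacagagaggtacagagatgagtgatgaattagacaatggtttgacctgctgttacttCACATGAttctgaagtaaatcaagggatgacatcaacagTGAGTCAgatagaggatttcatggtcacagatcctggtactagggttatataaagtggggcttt
Itgax, chr7:128129300-128129569: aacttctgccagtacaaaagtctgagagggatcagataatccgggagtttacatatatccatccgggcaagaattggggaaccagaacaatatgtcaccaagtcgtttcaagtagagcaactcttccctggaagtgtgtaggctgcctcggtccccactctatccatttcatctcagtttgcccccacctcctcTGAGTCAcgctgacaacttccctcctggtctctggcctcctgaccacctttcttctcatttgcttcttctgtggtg

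Trem2 and Atp6v0d2 were the members found almost wholly in the macrophage/monocyte-like nuclei in both libraries. Mmp12 was so in KO, with 170 of 186 UMIs in these nuclei, but not in Flox, with 14 of 29. Trem2 (chromosome 17, 48346401 to 48354147, plus strand, mm10) had 61 UMIs in 48 of these nuclei in Flox, 53.6 CPM (41.0 to 68.8), and 84 UMIs in 60 nuclei in KO, 78.2 CPM (62.4 to 96.8). The KO over Flox ratio was 1.46 (1.04 to 2.06). Trem2 UMIs were thinly spread: no nucleus held more than 5 in Flox or 4 in KO, and 39 of 48 and 42 of 60 holding nuclei had a single UMI. This class held 83.6% of all Trem2 UMIs of the kept nuclei in Flox and 88.4% in KO. No other class held more than 6 Trem2 UMIs in either library.

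Atp6v0d2 (chromosome 4, 19876841 to 19922605, minus strand) had 217 UMIs in 46 macrophage/monocyte-like nuclei in Flox, 191 CPM (166 to 218), and 321 in 49 nuclei in KO, 299 CPM (267 to 333). The ratio was 1.57 (1.32 to 1.87). Unlike Trem2, single nuclei held many Atp6v0d2 UMIs, up to 37 in Flox and 44 in KO. The class held 88.9% and 94.7% of all Atp6v0d2 UMIs, and Schwann-like, pericyte/smooth muscle-like, T/NK-like and skeletal muscle-like nuclei held 0 in both libraries.

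Gpnmb (chromosome 6, 49036546 to 49070929, plus strand) had 500 UMIs in 59 macrophage/monocyte-like nuclei in Flox, 439 CPM (402 to 480), and 756 in 71 nuclei in KO, 704 CPM (655 to 756). The ratio was 1.60 (1.43 to 1.80). The nucleus with most Gpnmb held 125 UMIs in Flox and 86 in KO, and 7 nuclei held at least 50% of the class's Gpnmb UMIs in each library. Without the top nucleus of each library the log2 ratio was 0.92, against 0.68 with all nuclei.

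Lgals3 (chromosome 14, 47367751 to 47386160, plus strand) was held by more macrophage/monocyte-like nuclei than any other member. It had 377 UMIs in 129 nuclei in Flox, 331 CPM (299 to 366), and 535 in 136 nuclei in KO, 498 CPM (457 to 542), a log2 ratio of 0.59. No nucleus held more than 20 Lgals3 UMIs in Flox or 28 in KO. This class held 65.7% of Lgals3 UMIs in Flox and 75.5% in KO.

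Mmp12 (chromosome 9, 7344381 to 7369499, plus strand) differed most between the libraries among the members. It had 14 UMIs in 7 macrophage/monocyte-like nuclei in Flox, 12.3 CPM (6.72 to 20.6), and 170 UMIs in 16 nuclei in KO, 158 CPM (135 to 184). The ratio was 12.9 (7.46 to 24.0). The difference lay in UMIs per nucleus more than in the number of nuclei. No Flox nucleus of this class held more than 4 Mmp12 UMIs, while 10 KO nuclei held 5 or more and the highest held 39. Over all kept nuclei Mmp12 had 29 UMIs in Flox and 186 in KO, a ratio of 6.62 (4.46 to 10.2). An endothelial-like Flox nucleus held 7 of them. In KO 4 nuclei of the class carried at least 50% of its Mmp12 UMIs. The intervals count UMIs as independent and so do not cover the spread between nuclei.

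Itgax (chromosome 7, 128129547 to 128150657, plus strand) was rare, with 12 UMIs in 6 macrophage/monocyte-like nuclei in Flox, 10.5 CPM (5.45 to 18.4), and 27 in 15 nuclei in KO, 25.1 CPM (16.6 to 36.6). The ratio was 2.38 (1.17 to 5.17). Its log2 ratio of 1.22 became -0.18 when nuclei needed 500 genes and at most 5% mitochondrial UMIs, and 64 of the 69 nuclei of the sub-cluster with most Itgax in KO then fell in the T/NK-like class.

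Cd9 (chromosome 6, 125460266 to 125494791, minus strand) was low in macrophage/monocyte-like nuclei, with 23 UMIs in 20 nuclei in Flox, 20.2 CPM (12.8 to 30.3), and 19 in 15 nuclei in KO, 17.7 CPM (10.7 to 27.6). The ratio was 0.875 (0.451 to 1.68), so a difference was not detectable at this depth. The direction turned when nuclei needed 500 genes and at most 5% mitochondrial UMIs. Flox then had 8 UMIs and KO had 18, a log2 ratio of 1.13. No nucleus of the class held more than 2 Cd9 UMIs.

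Of the 7 members, 5 were at least 1.5-fold higher in the KO class and none lower, beside 6.54% of the 9306 genes with at least 20 UMIs that were higher and 8.73% that were lower. Several of these calls did not hold under other settings: Lgals3 fell to a log2 ratio of 0.30 when thinned to 500 UMIs, Gpnmb to 0.45 and Atp6v0d2 to 0.44 with classes from marker scores, Gpnmb to 0.51 without sub-cluster 5, and Itgax turned under the stricter filter. The 2 members at least 2-fold higher were Mmp12 and Itgax, beside 1.58% of all genes higher and 2.73% lower, or 0.737% and 0.855% of the genes with at least 50 UMIs. Both had fewer than 20 UMIs in Flox and reached the minimum through KO, so no support is drawn from these counts. The members' median log2 ratio was 0.65, and that of all 9306 genes was -0.03. In the summed UMIs of a class, more nuclei with the transcripts and more transcripts per nucleus cannot be told apart, so the nuclei were examined next.

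**Figure D1:**
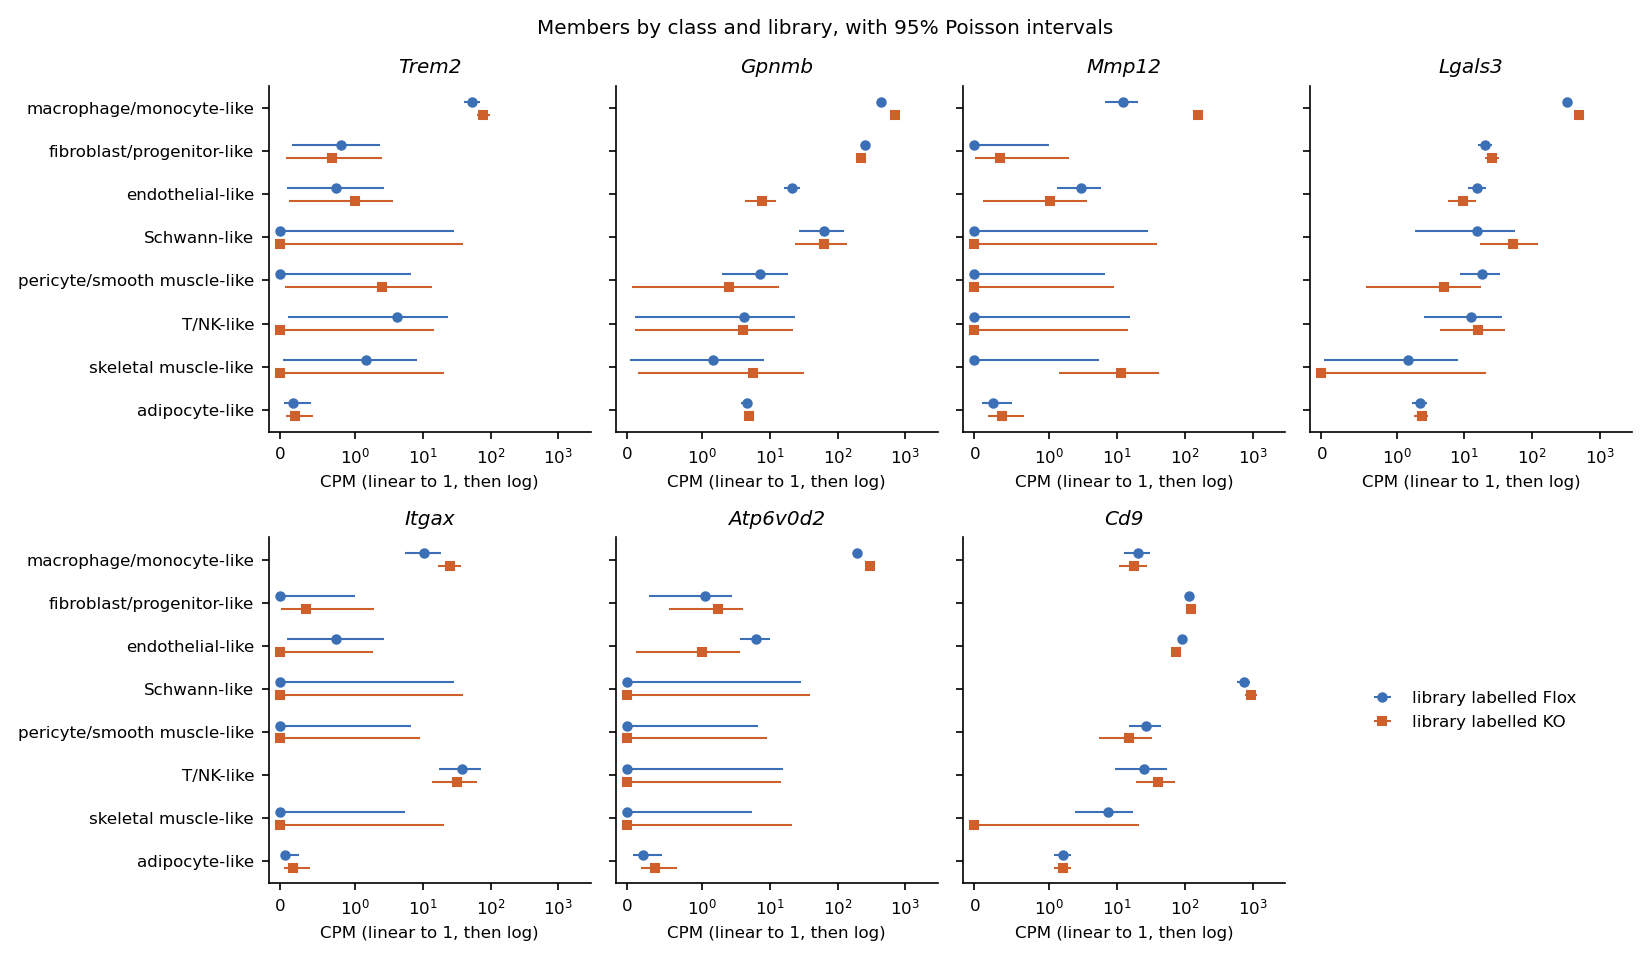
CPM of each member (x axis, linear to 1 and logarithmic above) in the 8 classes (y axis), with circles for the library labelled Flox, squares for KO and bars for 95% Poisson intervals. Trem2 and Atp6v0d2 stand high only in macrophage/monocyte-like nuclei, Gpnmb is also high in fibroblast/progenitor-like nuclei, and Cd9 is highest in Schwann-like nuclei.

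**Figure D2:**
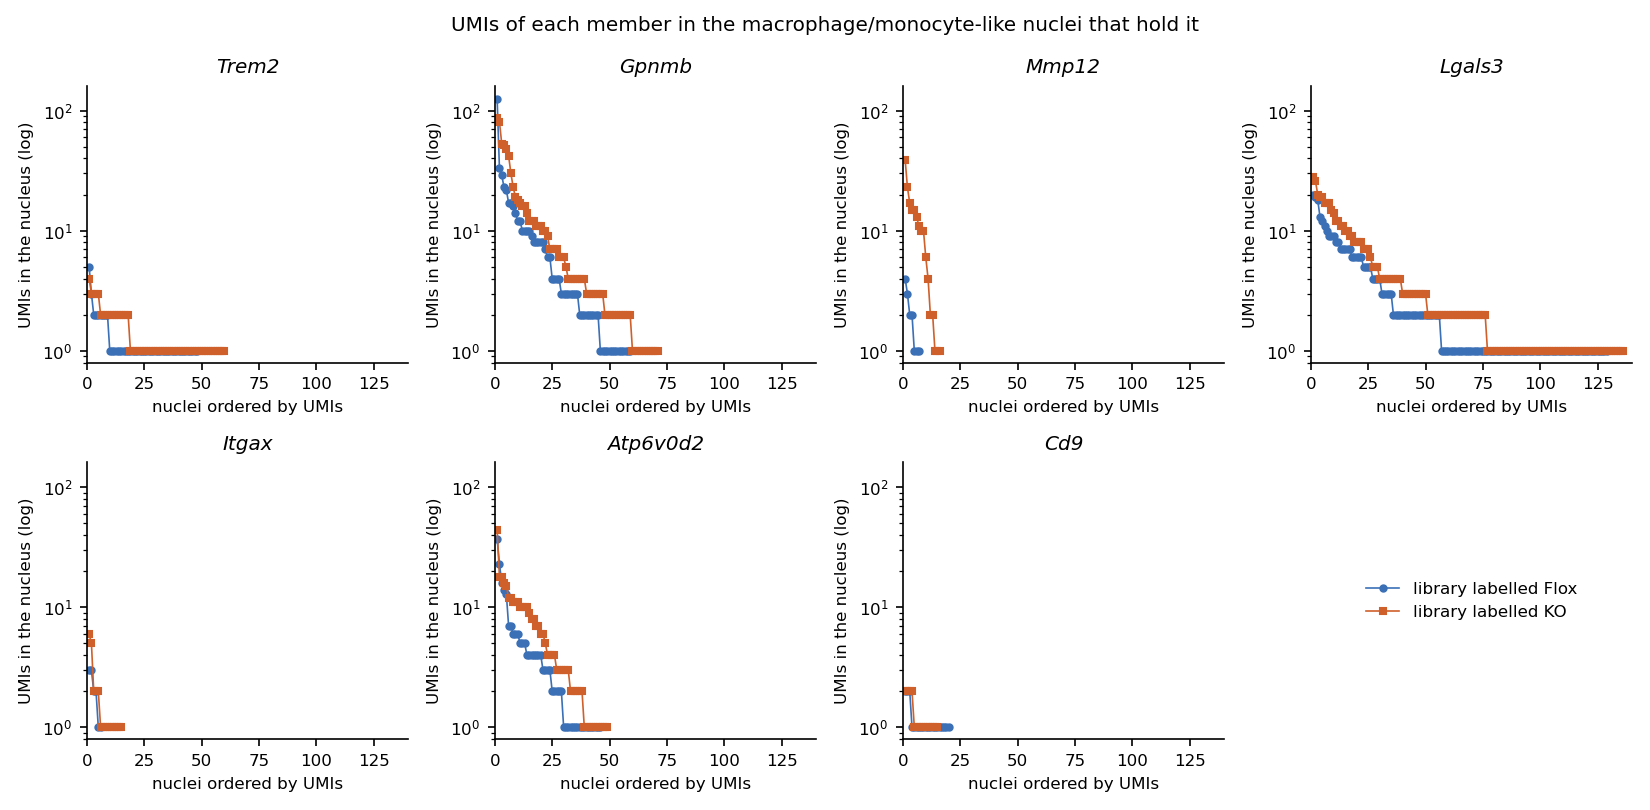
UMIs of each member (y axis, logarithmic) in every macrophage/monocyte-like nucleus that holds it, with nuclei ordered from most to fewest UMIs (x axis), circles for the library labelled Flox and squares for KO. Gpnmb and Atp6v0d2 fall steeply from a few rich nuclei, and Lgals3 is spread over more nuclei. Trem2 stays at 1 to 5 UMIs, and Mmp12 reaches 39 UMIs in KO but 4 in Flox.

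The members shared nuclei. Among Gpnmb-holding macrophage/monocyte-like nuclei, 54.2% in Flox and 57.7% in KO also held Atp6v0d2, against 2.69% and 2.42% of the nuclei without Gpnmb. Lgals3 was in 71.2% and 78.9% of Gpnmb-holding nuclei, against 16.7% and 24.2% of the rest. Gpnmb was in 43.8% and 45.0% of Trem2-holding nuclei, against 7.16% and 12.9% of the rest. Mmp12 lay with Gpnmb in 6 of 7 nuclei in Flox and 12 of 16 in KO. Itgax stood apart in Flox, where 0 of 6 holding nuclei had Gpnmb, and 7 of 15 had it in KO. Holding nuclei were deeper than the others, with medians of 2307 against 1532 UMIs in Flox and 2701 against 1927 in KO, and deeper nuclei hold more genes of any kind; the part of depth in these shares was not tested.

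The richest nuclei show the combination directly. The Flox nucleus with 125 Gpnmb UMIs held 37 of Atp6v0d2, 19 of Lgals3 and 5 of Trem2 among 8336 UMIs, with no Mmp12. The KO nucleus with 86 Gpnmb UMIs held 44 of Atp6v0d2, 28 of Lgals3, 15 of Mmp12 and 2 of Cd9 among 8131 UMIs. The next KO nucleus had 81 Gpnmb, 39 Mmp12, 26 Lgals3 and 18 Atp6v0d2 UMIs among 5032. None of the 3 richest Gpnmb nuclei of KO held a Trem2 UMI.

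For a count of members per nucleus 5 were taken, Trem2, Gpnmb, Mmp12, Itgax and Atp6v0d2, though Gpnmb and Itgax are also used by other cells. At least 1 of the 5 was held by 106 of 579 nuclei in Flox, 18.3% (15.2 to 21.7), and by 119 of 402 in KO, 29.6% (25.2 to 34.3). At least 2 were held by 7.25% (5.28 to 9.68) and 14.2% (10.9 to 18.0), and at least 3 by 2.59% (1.46 to 4.24) and 7.21% (4.88 to 10.2). No nucleus held all 5. With every nucleus thinned to 500 UMIs and none left out, at least 1 was held by 10.4% (8.0 to 13.1) in Flox and 18.4% (14.7 to 22.5) in KO, and at least 2 by 3.11% (1.85 to 4.87) and 7.96% (5.51 to 11.1). The same thinned share in skeletal muscle-like nuclei, which should lack these genes, was 0.341% of 293 nuclei in Flox and 1.39% of 72 in KO, at median depths of 1872 and 2206.5 UMIs before thinning. In fibroblast/progenitor-like nuclei, which use Gpnmb, it was 11.7% and 9.06% for at least 1 of the 5. Thinned shares by gene were 2.59% and 4.48% for Trem2, 6.56% and 12.2% for Gpnmb, 3.63% and 6.47% for Atp6v0d2, and 8.81% and 11.7% for Lgals3.

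The class was then divided into 7 sub-clusters on variable genes that left out all 7 members, so that the members' place in them was not used to make them. Sub-cluster 3, led by Gadd45b, Il7r, Lhfpl2, Slc7a11, Syngr1, Gdf15 and Fabp5, held most of the class's Gpnmb, Atp6v0d2, Mmp12 and Lgals3 UMIs in both libraries. It had 63 of the 579 Flox nuclei, 10.9% (8.46 to 13.7), and 74 of the 402 KO nuclei, 18.4% (14.7 to 22.5). With 30 components in the sub-clustering the corresponding group was larger, at 21.4% and 35.3%. The 63 and 74 nuclei carried 87.2% of the class's Gpnmb UMIs in Flox and 78.0% in KO. For Atp6v0d2 the shares were 82.9% and 82.6%, for Mmp12 57.1% and 74.7%, for Lgals3 58.9% and 62.8%, and for Trem2 45.9% and 47.6%. The rarer Itgax had 58.3% and 22.2% there, and Cd9 17.4% and 63.2%. At least 2 of the 5 members were held by 34 of 63 nuclei of sub-cluster 3 in Flox and 44 of 74 in KO, against 8 of 516 and 13 of 328 elsewhere in the class. Its median doublet scores were 0.111 and 0.102, against 0.0536 and 0.0655 in sub-cluster 0, the largest one, whose leading genes include Lyve1 and Timd4 of resident macrophages. Sub-cluster 0 held 35.2% and 41.5% of the class's nuclei, and 2 of 204 and 1 of 167 of them held at least 2 of the 5 members.

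Within sub-cluster 3 the ratios of Gpnmb, Atp6v0d2, Lgals3 and Trem2 were closer to 1 than in the whole class. Gpnmb stood at 2552 CPM (2318 to 2803) in Flox and 2907 (2677 to 3151) in KO, a ratio of 1.14 (1.0 to 1.29), which turned to a log2 ratio of -0.018 with 30 components in the sub-clustering. Atp6v0d2 had 1054 and 1306 CPM, a ratio of 1.24 (1.02 to 1.51), Lgals3 1299 and 1656 CPM, a ratio of 1.27 (1.07 to 1.52), and Trem2 164 and 197 CPM, a ratio of 1.20 (0.724 to 2.02). The share of nuclei with Gpnmb was 66.7% in Flox and 74.3% in KO, and with Atp6v0d2 49.2% and 47.3%. Whether the ratios of the class and the sub-cluster differ was not tested.

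Mmp12 did not follow them. Within sub-cluster 3 it had 8 UMIs in 5 of 63 nuclei in Flox, 46.8 CPM (20.2 to 92.3), and 127 UMIs in 12 of 74 nuclei in KO, 626 CPM (522 to 745). The ratio of 13.4 (6.58 to 31.6) was as large as in the whole class. Cd9 had 4 UMIs in 4 nuclei of sub-cluster 3 in Flox and 12 in 10 nuclei in KO, a ratio of 2.53 (0.765 to 10.7).

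Outside sub-cluster 3 the members parted. Trem2 was also held in sub-cluster 0, with 15 UMIs in 14 nuclei in Flox and 16 in 11 in KO, and in sub-cluster 2, with 5 UMIs in 5 of 87 nuclei in Flox and 17 in 11 of 50 in KO. Gpnmb outside sub-cluster 3 lay mainly in sub-cluster 5. Sub-cluster 5 had 27 Flox and 17 KO nuclei, with Chil3 and Ly6c2 of monocytes among its leading genes and the highest adipocyte marker level of all sub-clusters, 5847 CPM summed over 12 markers against 977 to 2088 in the others. Its KO nuclei had a median of 6547 UMIs, and 7 of them held 151 Gpnmb UMIs, against 41 in 2 Flox nuclei. The Gpnmb ratio outside sub-cluster 3, with sub-cluster 5 included, was 2.88 (2.15 to 3.91). No sub-cluster other than 3 and 5 held more than 10 Gpnmb UMIs in Flox or 8 in KO. In the class without sub-cluster 5, which keeps sub-cluster 3, the ratio was 1.43 (1.26 to 1.61). The median doublet scores of sub-cluster 5 were the highest of all, 0.157 in Flox and 0.190 in KO. Under the stricter filter 24 of its nuclei fell in the T/NK-like class and 20 in the macrophage/monocyte-like class. The part of free RNA or doublets in its Gpnmb was not tested.

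Sub-cluster 4, led by Fn1, Lyz1, Ear2 and Cd226, had 46 Flox and 23 KO nuclei and held 0 Trem2 and 0 Gpnmb UMIs in both libraries. A count of 0 there, with 3 counts taken as the limit, allows up to 30.7 CPM in Flox and 46.2 CPM in KO, and the exact Poisson upper bounds are 37.8 and 56.9 CPM. It did hold Itgax, with 2 UMIs in 1 nucleus in Flox and 17 in 7 nuclei in KO, which is 63.0% of the KO class's Itgax UMIs. It also held 2 Mmp12 UMIs in 1 Flox nucleus and 42 in 3 KO nuclei. One KO nucleus there had 17 Mmp12 and 6 Itgax UMIs among 2701, with no Gpnmb, Trem2 or Atp6v0d2. Itgax in sub-cluster 3 had 7 UMIs in Flox and 6 in KO.

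**Figure D3:**
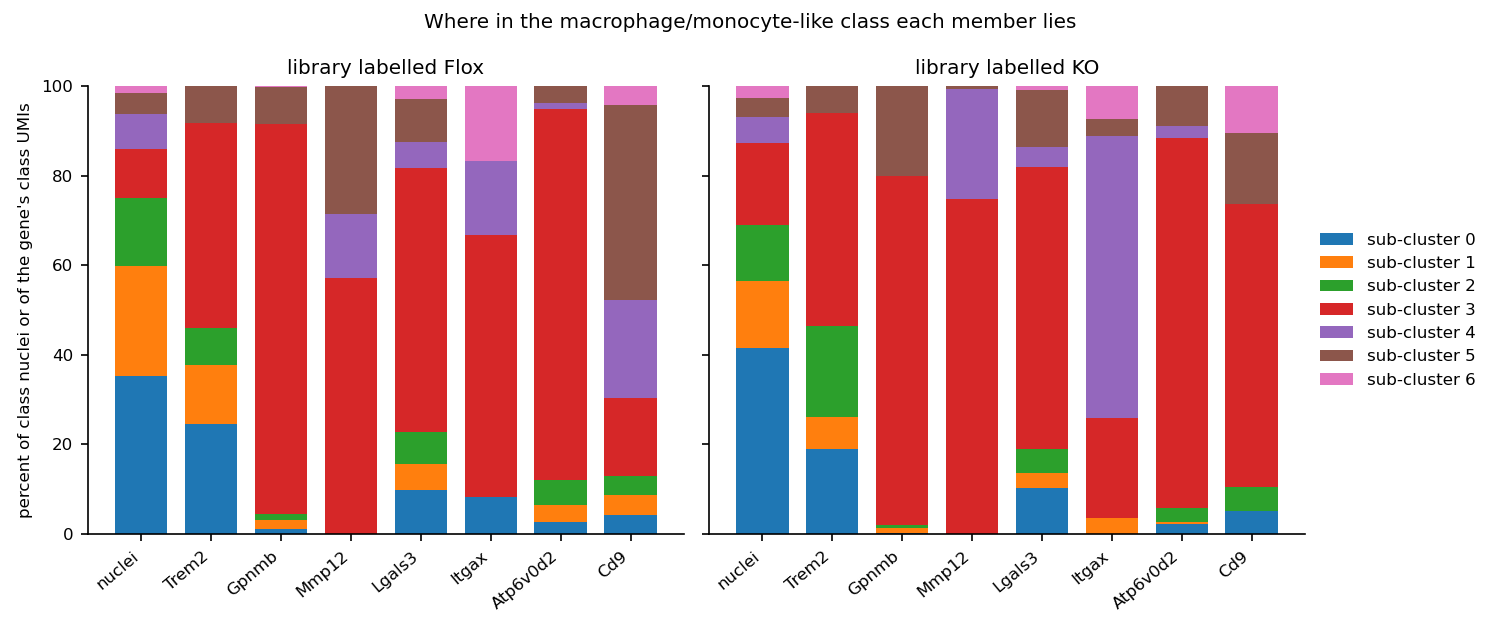
Percent (y axis, 0 to 100) of macrophage/monocyte-like nuclei (first bar) and of each member's UMIs in that class (other bars) that fall in each of 7 sub-clusters, for the library labelled Flox (left) and KO (right). Sub-cluster 3 holds 10.9% and 18.4% of the nuclei but 87.2% and 78.0% of the Gpnmb UMIs, and sub-cluster 4 holds 63.0% of the Itgax UMIs in KO.

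**Figure D4:**
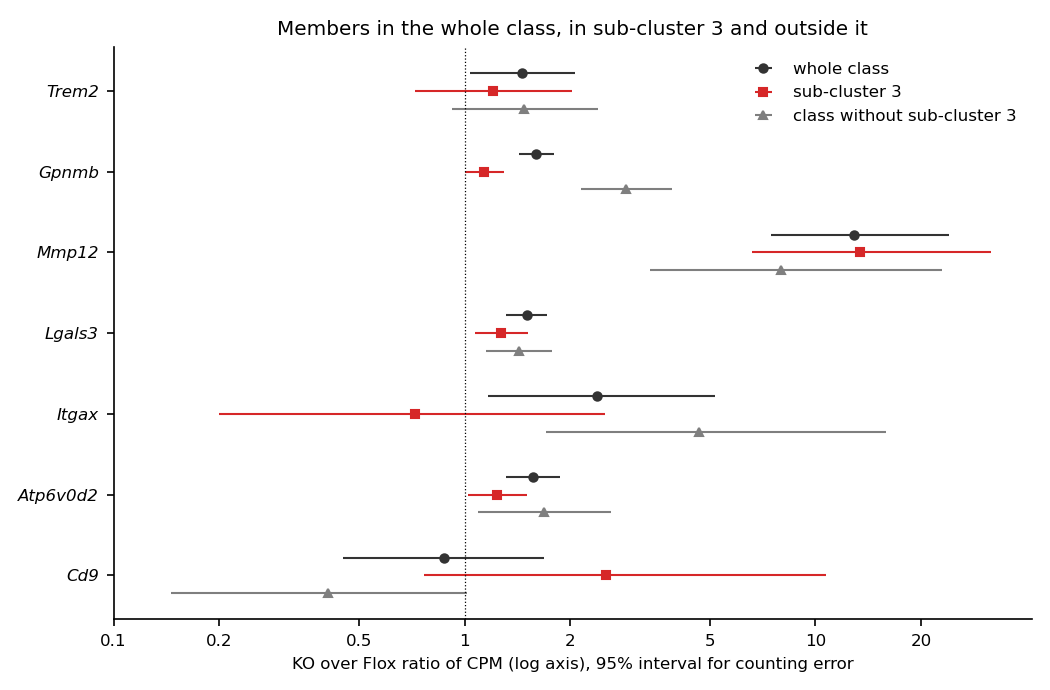
KO over Flox ratio of each member's CPM (x axis, logarithmic) with 95% intervals for counting error, in the whole macrophage/monocyte-like class (circles), in sub-cluster 3 (squares) and outside it (triangles), with a dotted line at 1. The ratio for Gpnmb is 1.60 in the class and 1.14 in sub-cluster 3, while that for Mmp12 is 12.9 and 13.4.

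Genes of the same biology were compared between nuclei holding at least 1 of the 5 members and nuclei holding none, within each library. Over all 9299 genes with at least 20 UMIs, the median log2 ratio was 0.04 in Flox and 0.10 in KO, and in both libraries 3.02% of genes stood 2-fold or more above and 1.99% stood 2-fold or more below. Of these genes, 3270 were above 0 in both libraries and 2369 below 0 in both. Lgals3, which was not used to choose the nuclei, was 9.26 times as high in holding nuclei of Flox (7.31 to 11.8) and 7.63 times in KO (6.13 to 9.57). Cd9 had 8 UMIs in holding and 15 in other nuclei in Flox, and 17 and 2 in KO.

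Lysosome genes stood higher in the holding nuclei, with 14 of 16 above 0 in both libraries, 4 at least 2-fold higher in both, and medians of 0.98 in Flox and 0.58 in KO. Lipa, the acid lipase that breaks down cholesteryl esters in lysosomes, had 362 against 85.0 CPM in Flox and 388 against 103 CPM in KO. Ctsd, a lysosomal protease, had 1074 against 230 CPM and 876 against 303 CPM. Psap, the precursor of the saposins that help break down sphingolipids, had 2661 against 1058 CPM and 2686 against 1195 CPM. For proton pump subunits and MiT/TFE factors, which switch on lysosome genes, 11 of 13 were above 0 in both, with medians of 0.72 and 0.69 and 3 at least 2-fold higher. Those 3 were the pump subunits Atp6v1a and Atp6v1b2 and the factor Tfec, which had 204 against 85.0 CPM in Flox and 212 against 85.9 in KO.

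Of 14 lipid handling genes, 11 were above 0 in both libraries and 3 below 0 in both. In holding nuclei 6 were at least 2-fold higher in both libraries, and the medians were 0.72 and 1.12. Soat1, which esterifies cholesterol for storage, had 462 against 122 CPM in Flox and 398 against 114 in KO. Nceh1, which hydrolyses cholesteryl esters, had 430 against 114 CPM and 496 against 118. Plin2, a coat protein of lipid droplets, had 494 against 162 CPM and 489 against 186, and Abcg1, a cholesterol exporter, 254 against 80.3 and 261 against 87.3. Nr1h3, the gene of the sterol receptor LXR alpha, and Fabp5, a fatty acid carrier, completed the 6. The 3 below were Fabp4, Msr1 and Apoc1. Fabp4 had 412 against 620 CPM in Flox and 326 against 457 in KO. Msr1 had 186 against 293 CPM and 271 against 352, and Apoc1 14.3 against 30.3 and 12.9 against 34.9. Tyrobp, the adaptor of TREM2, was close, with ratios of 1.25 (0.862 to 1.78) and 1.30 (0.916 to 1.84), and none of the 7 TREM2 and DAP12 signalling genes measured was at least 2-fold apart.

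Resident macrophage genes stood lower, with 16 of 18 below 0 and 7 at least 2-fold lower in both libraries, and medians of -0.82 and -1.15. F13a1, a transglutaminase, had 1827 against 6058 CPM in Flox and 1579 against 7042 in KO. Timd4, a receptor for phosphatidylserine, had 39.4 against 151 CPM and 23.3 against 147. Mertk, another receptor for dying cells, went the other way, with 1819 against 917 CPM and 2065 against 1123.

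Among all genes with at least 30 UMIs in holding nuclei, 3.58% were at least 2-fold higher and 1.09% lower in both libraries. The 8 furthest above were Stra6l, Il7r, Gdf15, Cd5l, Syngr1, Fabp5, Gadd45b and Lhfpl2, several of which also led sub-cluster 3. Gdf15, a stress-induced hormone, had 38 UMIs in holding and 2 in other nuclei in Flox (ratio 58.5, 15.1 to 500) and 26 and 2 in KO (ratio 23.1, 5.78 to 201). Fabp5 had 40 and 5 UMIs in Flox and 25 and 3 in KO. The 6 furthest below were Cmah, Ripor2, Rasgrp3, Aff3, F13a1 and Ednrb. Holding nuclei had higher median doublet scores than the others, 0.110 against 0.0734 in Flox and 0.105 against 0.0731 in KO.

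**Figure D5:**
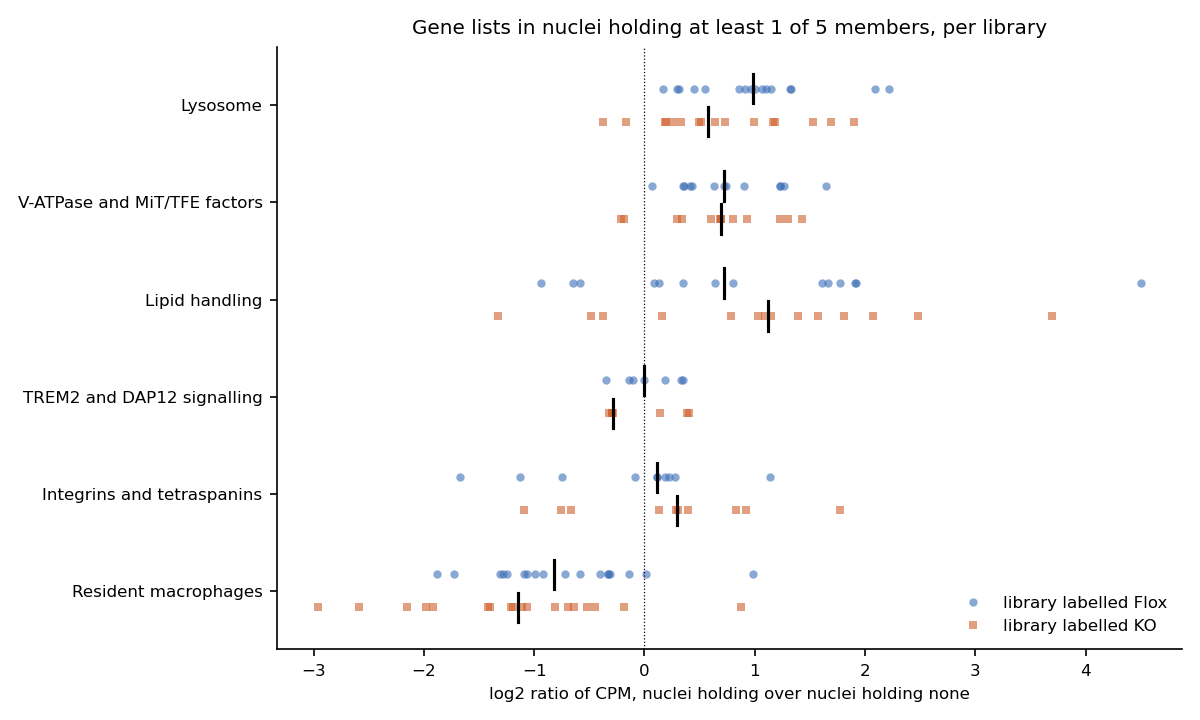
Log2 ratio of CPM in macrophage/monocyte-like nuclei holding at least 1 of 5 members over nuclei holding none (x axis), 1 point per gene of each list (y axis), circles for the library labelled Flox, squares for KO and black bars for medians. Lysosome genes lie mostly above 0 in both libraries (medians 0.98 and 0.58) and resident macrophage genes mostly below (-0.82 and -1.15).

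The same lists were then compared between the libraries over the whole class. None of 16 lysosome, 13 pump and factor, 14 lipid handling or 18 resident macrophage genes was at least 2-fold apart. Of all genes with at least 20 UMIs, 1.58% were 2-fold higher in KO and 2.73% lower, so lists this short can hold none. The medians of the log2 ratio were 0.22, 0.17, 0.15 and 0.17, against -0.03 for all genes. In the same order, 14, 7, 10 and 15 genes were above 0. The share of all genes above 0 was not counted, so no result is read from these counts. Lysosome genes with most UMIs were Psap, with 1451 CPM in Flox and 1732 in KO, Ctsb, with 1176 and 1537, and Ctss, with 675 and 712. Apoe, a lipid carrier that binds TREM2, had 5054 and 5466 CPM, and Inpp5d and Syk, which act downstream of DAP12, had 1010 and 973 CPM and 565 and 562 CPM. Mitf, a MiT/TFE factor, had 971 and 1174 CPM, and the pump subunits Atp6v0b and Atp6v0a1 had 548 and 484 CPM and 439 and 513 CPM. Of the lipid handling genes with most UMIs, Cd36, a fatty acid receptor, had 819 and 932 CPM, Pparg 832 and 553 CPM, and the cholesterol exporter Abca1 562 and 608 CPM. Pparg and Fabp5 were the 2 of that list of 14 at least 1.5-fold lower in KO, beside 8.73% of all genes. Fabp5 had 45 and 28 UMIs. Among resident macrophage genes, F13a1 had 5020 and 5074 CPM, Mrc1, the mannose receptor, 2874 and 3241 CPM, and Mertk 1139 and 1463 CPM. The adipocyte marker list, which includes Pparg, summed to 1775 CPM in the Flox class and 1459 in the KO class, with 12 of 12 detected in both. Pparg is part of these sums, so they are no separate gauge of its difference. The part of adipocyte transcripts in the values of the class was not tested.

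Gpnmb was also a gene of fibroblast/progenitor-like nuclei, where it behaved differently. It had 923 UMIs in 532 of 2076 nuclei in Flox, 249 CPM (233 to 266), and 628 UMIs in 375 of 1435 nuclei in KO, 217 CPM (201 to 235), a ratio of 0.872 (0.787 to 0.967), in a class where 0.521% of genes with at least 50 UMIs were 2-fold higher in KO and 0.661% lower. Its share of nuclei was 11.6% in Flox and 8.92% in KO when thinned to 500 UMIs, but 17.7% and 17.6% when thinned to 1000 and 25.6% and 26.1% unthinned. No nucleus held more than 14 Gpnmb UMIs in Flox or 8 in KO, and 60.7% and 61.6% of holding nuclei had a single one. At least 50% of the UMIs were spread over 140 nuclei in Flox and 103 in KO, against 7 in macrophage/monocyte-like nuclei. Other members rarely came with it: 2 of 2076 Flox nuclei and 3 of 1435 KO nuclei held at least 2 of the 5 members. The cluster led by Lvrn, Tmeff2 and Lama2 had 282 and 271 CPM, a ratio of 0.958 (0.848 to 1.08). The cluster led by Opcml, Fndc1 and Adgrd1, with Dpp4 among its leading genes, had 190 and 145 CPM, a ratio of 0.766 (0.629 to 0.932).

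In adipocyte-like nuclei Gpnmb was at 4.53 CPM (3.78 to 5.38) in Flox and 4.94 (4.17 to 5.81) in KO, and 1.18% and 1.34% of nuclei held a UMI at median depths of 2757 and 3100. In endothelial-like nuclei it had 57 UMIs in 12 nuclei in Flox and 15 in 14 nuclei in KO, but 45 of the Flox UMIs lay in a single nucleus. In this class 0.379% of genes with at least 50 UMIs were 2-fold higher in KO and 2.15% lower. The nucleus with 45 also held 17 Atp6v0d2, 17 Lgals3, 7 Mmp12 and 1 Trem2 UMI among 15854, with UMIs of 9 of 12 endothelial and 4 of 14 macrophage/monocyte markers. Whether it is a doublet was not tested. The endothelial-like log2 ratio of Gpnmb was -1.45 with it and 0.55 without the top nucleus of each library.

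Cd9 was mainly a gene of other cells, and macrophage/monocyte-like nuclei held 2.65% of its UMIs in Flox and 2.81% in KO. The highest level was in Schwann-like nuclei, the glia of nerves, where 33 of 87 nuclei in Flox and 27 of 56 in KO held it, at 738 CPM (597 to 902) and 957 CPM (770 to 1175). The ratio was 1.30 (0.961 to 1.75), in a class where 1.97% of genes with at least 50 UMIs were 2-fold higher in KO and 2.84% lower. This cluster also had 8 fibroblast/progenitor markers raised. Gpnmb was there too, at 62.2 CPM (26.8 to 122) and 63.1 CPM (23.1 to 137). Fibroblast/progenitor-like nuclei followed, with 117 CPM (106 to 128) and 123 CPM (111 to 137), and then endothelial-like nuclei, with 90.5 CPM (79.5 to 103) and 73.4 CPM (62.0 to 86.3). The endothelial-like ratio was 0.811 (0.656 to 0.999). T/NK-like, pericyte/smooth muscle-like and macrophage/monocyte-like nuclei came next, at 14.8 to 39.5 CPM with overlapping intervals. At a finer clustering, 1 small endothelial-like cluster of 52 Flox and 30 KO nuclei had Cd9 at 549 and 528 CPM, and the large endothelial-like cluster of 1446 and 927 nuclei at 70.6 and 53.3 CPM. A fibroblast/progenitor-like cluster of 26 and 16 nuclei had Cd9 at 793 and 597 CPM.

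Itgax was also found in T/NK-like nuclei, with 9 UMIs in 6 of 111 nuclei in Flox, 37.5 CPM (17.2 to 71.2), and 8 in 7 of 129 in KO, 31.6 CPM (13.7 to 62.3). Ncr1 or Klrb1c, which mark NK cells, was detected in 5 of those 6 nuclei and 5 of those 7. At least 1 UMI of the macrophage/monocyte markers was detected in 6 of 6 and 7 of 7 of them and B cell markers in 1 and 2. The macrophage/monocyte list includes Ptprc, a leading gene of the T/NK-like cluster too, so 1 UMI of it does not set macrophages apart. This class also had 7 of 8 B cell markers raised. Lgals3 stood at 20.5 CPM (16.2 to 25.7) and 26.0 CPM (20.4 to 32.6) in fibroblast/progenitor-like nuclei, far below its macrophage/monocyte-like level.

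The genes whose levels were most like each member's were found over 24 pairs of cluster and library, which share depth within a library, as a description. Trem2 was most like C5ar1, the receptor of complement C5a (Pearson r 0.97), and Gm5431 (0.93). Atp6v0d2 was most like Cd300lb (0.98) and Ms4a8a (0.96). Gpnmb was most like the lipid transporter genes Abca9 (0.93) and Abca6 (0.91), Lgals3 like Fbxl5 (0.91) and Atp6v0b (0.89), Mmp12 like Snx13 (0.88) and Lyz1 (0.86), and Cd9 like Cdkn1b (0.91) and Reck (0.90). Itgax had too few UMIs for this. Among the members themselves, Trem2 and Atp6v0d2 were most alike (0.88), and Mmp12 and Cd9 least alike (-0.16).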

How the data were processed

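The 7 members and all gene lists were chosen with earlier results of these data known, so nothing here is independent support for them. Nuclei were captured with 10x Genomics 3' v3 reagents, 8000 targeted per library, per the labels' protocols. The deposited files hold UMI counts, which the authors made with Cell Ranger (version 5.0.0 in the file headers) on mm10, per the submitters' processing notes; the sources used here do not state how introns were handled. Nuclei needed 200 genes and at most 10% mitochondrial UMIs (99 Flox and 129 KO barcodes removed). The highest Scrublet scores of each library were removed as doublets, at 0.8% per 1000 barcodes (2060 and 1331). Both libraries were clustered together without batch correction in scanpy 1.11.5 (2000 variable genes, 30 components, 15 neighbours, Leiden resolution 0.5). A cluster took a name when at least 3 markers stood 2-fold above the median cluster. The macrophage/monocyte-like class was sub-clustered without the members (1000 variable genes, 15 components).

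Intervals are exact Poisson for CPM, exact binomial for ratios and Clopper-Pearson for shares, at 95%, and treat UMIs or nuclei as independent. Log2 ratios add 0.5 UMI to each count. All members are named. The 3 genes with most UMIs in the class are named for the TREM2, lysosome, pump, lipid handling, resident macrophage and monocyte lists. Genes of any list 2-fold apart between libraries with at least 20 UMIs are named too. For lists of proliferation, integrin, secreted and antigen presentation genes no others are named. Median log2 ratios between libraries were -0.29 for antigen presentation, -0.08 for integrin and 0.15 for secreted genes. For holding nuclei the 8 genes furthest above and 6 below are named. For likeness, over log2(CPM + 1), the 2 genes with the highest r are given. Other genes of the lists named for holding nuclei were chosen after their values were seen. On simulated counts for KO over Flox in this class (9308 genes with at least 20 UMIs), the 2-fold rule found 95 of 98 genes changed 3-fold. It also called 88 higher and 87 lower among 9113 without a change, and 95.9% of intervals held the true ratio. The simulated counts were independent Poisson counts, which is the model behind the intervals. They had no clumping of UMIs in few nuclei and no spread between mice. The simulation therefore cannot show how the intervals or the 2-fold rule fare where these occur. Gene positions came from GENCODE vM21, and TMM factors, an alternative, from edgeR 4.0.16. Sub-clusters, finer clusters, single nuclei and promoters were examined after the data were seen.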

Additional observations from a re-analysis of the deposited data

Results flagged for a closer look

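Gpnmb was higher in the KO library in macrophage/monocyte-like nuclei, with a ratio of 1.60, and lower in fibroblast/progenitor-like nuclei, with a ratio of 0.872. It was also lower in endothelial-like nuclei, with a ratio of 0.358. These opposite directions flagged the gene, and with 1 library per genotype the difference between classes was not tested. The endothelial-like value rests on 1 Flox nucleus with 45 of 57 UMIs and turns to a log2 ratio of 0.55 without the top nucleus of each library.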

How the results depend on the processing

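Of 264 alternative values of the answers, 219 moved by less than their counting interval, 43 moved further and 2 reversed. A reversal was counted only where the main values were at least 2-fold apart. Smaller differences that changed direction, such as Cd9 in the class and Gpnmb in sub-cluster 3, were not counted as reversed. The cause was not tested for any of the 264 values. The 2 reversals were Itgax in macrophage/monocyte-like nuclei, at a log2 KO over Flox of -0.18 with 500 genes and 5% mitochondrial UMIs required (Cd9 1.13 there), and Gpnmb in endothelial-like nuclei, at 0.55 without the top nucleus of each library (-0.16 as a mean over nuclei, where Lgals3 was 0.40). Gpnmb in macrophage/monocyte-like nuclei was 0.45 with classes from marker scores, 0.92 without the top nuclei, 1.05 thinned to 500 UMIs and 0.51 without sub-cluster 5; thinned, Lgals3 was 0.30 and Atp6v0d2 1.21. Within sub-cluster 3 Gpnmb was -0.018 with 30 components and 0.43 without the top nuclei.

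Genes 2-fold apart in the class (50 higher and 58 lower with at least 50 UMIs) numbered 147 and 254 with at least 20 UMIs and 18 and 19 when thinned, and 98 were lower with doublets kept. With at least 2 of the 5 members required, 463 genes were higher and 482 lower in holding nuclei, against 281 and 185. With doublets kept, macrophage/monocyte-like nuclei were 4.59% of Flox. Unthinned shares of nuclei with a UMI in Flox and KO were 8.29% and 14.9% for Trem2, 10.2% and 17.7% for Gpnmb, 22.3% and 33.8% for Lgals3, 7.94% and 12.2% for Atp6v0d2, and 3.45% and 3.73% for Cd9. Thinned to 1000 UMIs they were 5.08% and 7.90% for Trem2, 10.4% and 16.7% for Gpnmb, and 17.8% and 23.4% for Lgals3, with 5.77% for Atp6v0d2 and 3.0% for Cd9 in Flox. Sub-cluster 3 held 8.46% of the Flox class at resolution 0.8, 8.29% with 2000 variable genes, 21.4% with 30 components and 8.15% with doublets kept, and 35.3% and 14.6% of the KO class under the last 2. Its share was higher in KO under all 5 of these alternatives, resolution 0.3 included. Thinning in ratios, leaving out sub-cluster 5 and all settings of the sub-clustering were chosen after seeing the data.

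No paired analysis was possible because each genotype has 1 library and the labels carry no replicate numbers. Depth limits Itgax, Cd9 and Mmp12 in Flox, each at 12 to 23 UMIs in the class.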

Other observations

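Monocyte genes of the macrophage/monocyte-like class differed between the libraries. Of 9 measured, 6 were at least 2-fold lower in the KO class, beside 2.73% of all genes with at least 20 UMIs. All 6 had fewer than 20 UMIs in KO and reached that minimum mainly through Flox, where they are high, so no support is drawn from the count. Plac8 had 56 UMIs in Flox and 12 in KO (49.2 and 11.2 CPM), Cx3cr1, the fractalkine receptor of patrolling monocytes, 43 and 9 (37.8 and 8.38 CPM), Nr4a1 46 and 13, Ly6c2 31 and 6, Ace 19 and 2, and Treml4 20 and 0. The integrin chain Itgal, found on monocytes and lymphocytes, had 80 and 13 UMIs (70.3 and 12.1 CPM). Ccr2 (129 and 101 CPM), Chil3 (25.5 and 26.1 CPM) and Fn1 (228 and 186 CPM) were not 2-fold apart. Sub-cluster 4 had 3511 CPM of the listed monocyte genes in Flox against 3515 in KO, and sub-cluster 5 had 2103 against 875.

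Of 7 proliferation genes measured, 5 were at least 2-fold lower in the KO class, beside the same 2.73%. All 5 had fewer UMIs in KO than the minimum and reached it mainly through Flox, where they are high. No support is therefore drawn from the count. Top2a had 45 UMIs in Flox and 6 in KO, Mki67 30 and 6, Diaph3 52 and 19, Kif11 22 and 1, and Cenpe 17 and 4. In sub-cluster 3, where most Gpnmb and Atp6v0d2 UMIs lay, the summed proliferation level was 661 CPM in Flox and 103 in KO.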
